A study of Mus musculus with 3 samples.

Results

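The genes described here are 8 costimulatory receptors of T cells: Cd28, Icos, Cd27, Tnfrsf4, Tnfrsf9, Tnfrsf18, Tnfrsf1b and Cd226. They were chosen by name, with earlier results of these data known, and all 8 were found among the 25638 gene names of the count table. As the sources used here describe it, RNA was sequenced from splenic CD8+ T cells of mice that were wild type and received no treatment. There were 3 groups with 1 library each: naive cells that have yet to encounter antigen, central memory cells, which recirculate through lymphoid organs, and effector memory cells, which patrol blood and tissues. The sources used here do not give the age, sex, strain or number of the mice or the gates of the sort. Because each group is 1 library, no difference below has a replicate check and no p-value is given.

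A T cell that meets its antigen needs a costimulatory signal beside that of the T cell receptor. CD28 and ICOS belong to the immunoglobulin superfamily; both recruit phosphoinositide 3-kinase after binding ligands of the B7 family on antigen-presenting cells. CD27, OX40 (Tnfrsf4), CD137 (Tnfrsf9), GITR (Tnfrsf18) and TNFR2 (Tnfrsf1b) are members of the tumour necrosis factor (TNF) receptor superfamily, and signal to NF-kB and survival pathways through TRAF adaptor proteins. CD226, also called DNAM-1, is an adhesion and costimulatory receptor of CD8+ T cells and natural killer (NK) cells. CD28 and CD27 are known from resting T cells, whereas ICOS, OX40 and CD137 are known as receptors induced by activation.

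Of the 5 TNF receptor genes, 4 lie on chromosome 4, where Tnfrsf4 and Tnfrsf18 are close neighbours. On the mouse build GRCm38 (GENCODE M21), Tnfrsf4 (ENSMUSG00000029075.6) spans chromosome 4, 156013843 to 156016612, and Tnfrsf18 (ENSMUSG00000041954.18) spans 156026164 to 156028895, both on the plus strand with 9551 bases between them. Tnfrsf9 (ENSMUSG00000028965.13) spans chromosome 4, 150914562 to 150946102, on the plus strand, and Tnfrsf1b (ENSMUSG00000028599.10) spans 145213463 to 145246870 on the minus strand. Cd28 (ENSMUSG00000026012.2) lies on chromosome 1, 60716800 to 60773359, and Icos (ENSMUSG00000026009.14) on the same strand at 60977927 to 61000320, with the inhibitory receptor gene Ctla4 between them. Cd27 (ENSMUSG00000030336.14) lies on chromosome 6, 125232622 to 125237010, on the minus strand. All are protein-coding. Exons of Tnfrsf18 share 414 bases with the antisense gene Gm16008, and without a stated strand setting reads of the pair cannot be told apart.

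RefSeq promoter entries (build GRCm38.p6) matched 5 of the 8 genes: Cd27, Tnfrsf1b, Tnfrsf4, Tnfrsf9 and Tnfrsf18. Shown are the 250 bases before the first RefSeq start site of Tnfrsf9, whose level differed most between the libraries, and of Tnfrsf1b, whose level differed least. The first is chr4:150919905-150920154 on the plus strand and the other chr4:145246871-145247120 on the minus strand, both 5′ to 3′. Neither window holds an annotated exon, and that of Tnfrsf9 lies in an intron of a GENCODE transcript that starts farther upstream. The last sequence is 30 bases before the other RefSeq start site of Tnfrsf9, farther inside the gene (chr4:150927946-150927975, plus strand), from 53 to 24 bases before that site, with a match to the NF-kB motif in capitals; the 81 bases next to that start site, which hold this sequence, lie in an annotated exon of another Tnfrsf9 transcript.
Tnfrsf9 first RefSeq start: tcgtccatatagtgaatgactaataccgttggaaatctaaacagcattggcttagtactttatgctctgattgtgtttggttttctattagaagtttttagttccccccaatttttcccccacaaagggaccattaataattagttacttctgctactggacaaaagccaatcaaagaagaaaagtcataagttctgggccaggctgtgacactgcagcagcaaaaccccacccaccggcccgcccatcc
Tnfrsf1b RefSeq start: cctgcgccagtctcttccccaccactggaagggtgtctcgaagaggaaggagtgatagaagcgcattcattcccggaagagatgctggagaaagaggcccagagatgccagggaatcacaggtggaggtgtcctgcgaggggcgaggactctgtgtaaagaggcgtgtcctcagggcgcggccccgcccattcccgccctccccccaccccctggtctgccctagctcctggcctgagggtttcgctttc
Tnfrsf9 other RefSeq start: cagagcagctGGGGATTTCCcaggaggccc

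These windows were searched on both strands for GGGNNNTTCC (NF-kB), TGANTCA (AP-1) and TGTGGT (RUNX). Of 32851 RefSeq windows of this length, 4.65% held the NF-kB letters, 6.75% the AP-1 letters and 14.0% the RUNX letters. Among the 6 windows of the 5 matched genes, only the window of the other Tnfrsf9 start site held any of them: the NF-kB match GGGGATTTCC at 43 bases and the AP-1 match TGAGTCA at 15 bases before the start site. Annotated exons filled 166 of the 250 bases for Tnfrsf4 (gene Sdf4) and 158 for Tnfrsf18 (Gm16008 and Tnfrsf18 itself). A match is a run of letters and not a measured binding site, and gene-level counts do not say which start site was used.

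The naive library held 26876909 counts, that of central memory 35846315 and that of effector memory 33087462. Levels are CPM (counts scaled by effective library size), and intervals are 95% exact counting intervals, which cover counting error only. A difference was called where the higher library reached 5 CPM, the ratio was at least 2-fold and its interval excluded 1. All 8 receptor genes reached 5 CPM in each library, so none was lost to the limit on low levels. Over naive, central memory and effector memory, the antigen-experience marker Cd44 had 2.95, 45.8 and 113 CPM. Of 7 CD8 T cell identity genes, all had counts in every library. None was called different in central memory against naive, beside 11.2% higher and 5.12% lower of all genes. In effector memory against naive 0 were called higher and 2 lower, beside 22.3% and 15.6% of all genes. These 2 were Cd8a (1868, 1063 and 408 CPM) and Cd8b1 (1055, 540 and 276 CPM). Against central memory, effector memory had 0 of the 7 higher and 1 lower, beside 14.8% and 12.8%. The libraries also stood apart in 2 further ways: the receptor segment Trbv12-1 made up 7.13% of Trbv counts in the naive library, 99.6% in central memory and 98.4% in effector memory, and the proliferation antigen Mki67 stood at 2.62, 301 and 1819 CPM. Receptor use, cycling and memory state cannot be told apart here. In bulk RNA, fewer cells of a type and less RNA per cell cannot be told apart.

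Cd28, the receptor for CD80 and CD86, had 2343 counts in the naive library, 5057 in central memory and 7726 in effector memory, which is 84.2, 141 and 242 CPM. Its level went up in the order naive, central memory, effector memory. The effector memory library was 2.87-fold above naive (interval 2.74 to 3.01), which passed the rule. Central memory was 1.68-fold above naive (interval 1.60 to 1.76) and effector memory 1.71-fold above central memory (interval 1.65 to 1.77), and neither step reached 2-fold.

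Icos, the inducible costimulator that binds ICOS ligand, followed the same order. It had 1142, 2031 and 3532 counts, or 41.0, 56.7 and 110 CPM in naive, central memory and effector memory. Effector memory was 2.69-fold above naive (interval 2.52 to 2.88), a called difference. The step from central memory to effector memory was 1.95-fold (interval 1.84 to 2.06), just short of 2-fold, and with DESeq2 size factors in place of the scaling used here it passed, at a log2 ratio of 1.04. Within a library, where no scaling between libraries enters, Icos per kilobase of exon stood at 0.870 of Cd28 in naive (interval 0.810 to 0.934), 0.717 in central memory (0.681 to 0.755) and 0.816 in effector memory (0.784 to 0.849). The ratio of these 2 genes moved far less between the libraries than the level of either.

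Tnfrsf9, which encodes CD137, a TNF receptor induced on activated CD8+ T cells, showed the widest range of the 8. It had 165 counts in the naive library, 968 in central memory and 13963 in effector memory, or 5.93, 27.0 and 437 CPM. Effector memory was 73.6-fold above naive (interval 63.2 to 86.4) and 16.2-fold above central memory (interval 15.1 to 17.3). Central memory was 4.56-fold above naive (interval 3.86 to 5.41), and all these differences were called. Per kilobase of exon, Tnfrsf9 exceeded the level of 40.6% of detected genes in the naive library, 66.4% in central memory and 98.4% in effector memory.

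Tnfrsf4, which encodes OX40, another receptor that appears after activation, had 189, 351 and 1296 counts, or 6.79, 9.80 and 40.5 CPM. Naive and central memory were both low, 1.44-fold apart (interval 1.21 to 1.73), and effector memory stood alone. It was 5.97-fold above naive (interval 5.12 to 6.99) and 4.14-fold above central memory (interval 3.67 to 4.67), both called.

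Tnfrsf18, which encodes GITR, differed from its neighbour Tnfrsf4 in where the step lay. It had 820, 3497 and 3548 counts, or 29.5, 97.6 and 111 CPM, so both memory libraries were high. Central memory was 3.31-fold above naive (interval 3.07 to 3.58) and effector memory 3.76-fold above naive (interval 3.49 to 4.07), both called, whereas the memory libraries were 1.14-fold apart (interval 1.08 to 1.19). Per kilobase, Tnfrsf18 stood at 3.89 times Tnfrsf4 in naive (interval 3.31 to 4.58), 8.92 times in central memory (7.99 to 9.99) and 2.45 times in effector memory (2.30 to 2.62).

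Cd27, the receptor for CD70, ran the other way. It had 7827, 10318 and 1666 counts, or 281, 288 and 52.1 CPM, so naive and central memory were high and effector memory was low. The effector memory library was 5.40-fold below naive (interval 5.12 to 5.70) and 5.53-fold below central memory (interval 5.25 to 5.83), both called. Central memory over naive was 1.02 with an interval of 0.994 to 1.05, a difference not detectable at this depth, and its direction turned under each other scaling.

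Cd226 (ENSMUSG00000034028.16), the receptor for the nectin-like protein PVR and for nectin-2, had the same shape as Cd27. It had 3612, 4303 and 1242 counts, or 129.8, 120 and 38.8 CPM. Effector memory was 3.34-fold below naive (interval 3.13 to 3.57) and 3.09-fold below central memory (interval 2.90 to 3.30), both called, and central memory was 1.08-fold below naive (interval 1.03 to 1.13).

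Tnfrsf1b, which encodes the TNF receptor TNFR2, was the member with the smallest range. It had 2614, 3990 and 3186 counts, or 93.9, 111 and 99.6 CPM, and its highest library was 1.19-fold above its lowest. No comparison called it. Effector memory over naive was 1.06 (interval 1.01 to 1.12), and the direction turned with total counts or upper quartile factors. Per kilobase, Tnfrsf1b stood at 1.91 times Tnfrsf1a, the death domain receptor for TNF, in naive (interval 1.77 to 2.06), 2.06 times in central memory (1.93 to 2.19) and 2.07 times in effector memory (1.93 to 2.23).

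**Figure D1:**
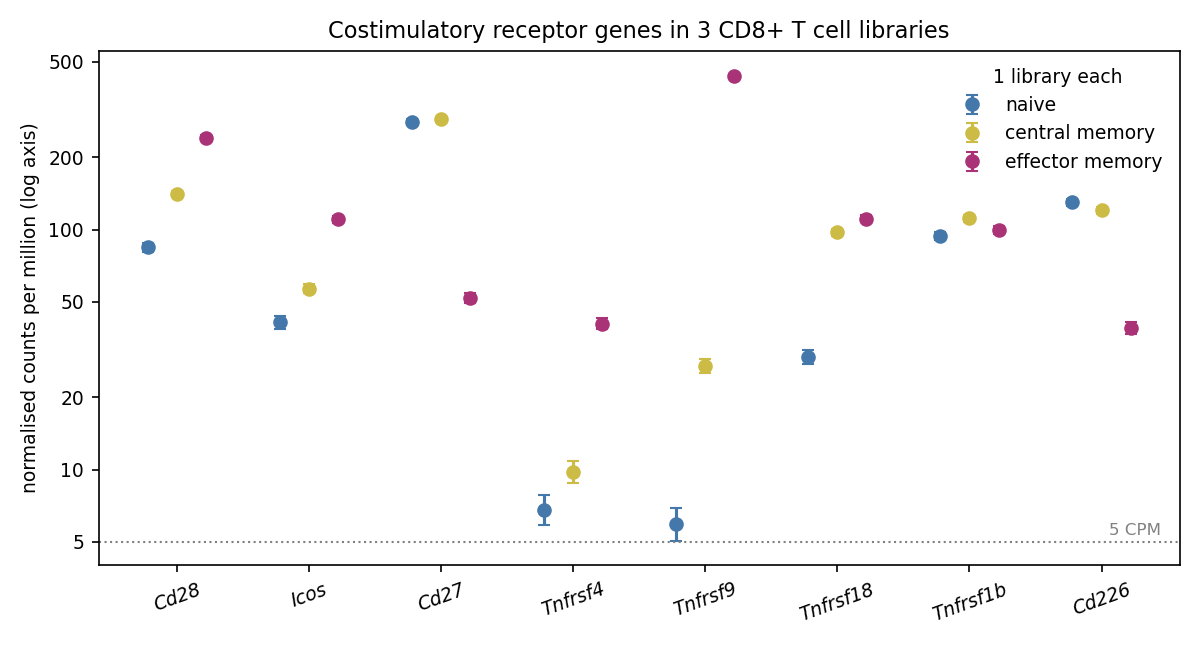
Normalised CPM (log axis) of the 8 receptor genes, with 1 point per library and bars for the 95% exact Poisson counting interval. Tnfrsf9 spans 5.93 to 437 CPM, Cd27 and Cd226 are lowest in effector memory, and the 3 libraries of Tnfrsf1b lie between 93.9 and 111 CPM.

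In central memory against naive, 2 of 8 receptor genes were called higher (Tnfrsf9 and Tnfrsf18) and 0 lower. Over all 9737 genes at 5 CPM or more in either library, 11.2% were called higher and 5.12% lower. The members' median log2 ratio was 0.50, beside 0.14 for all genes. The comparison of effector memory with naive called 5 of 8 higher and 2 lower, and Tnfrsf1b was called in neither direction. The share of all 10087 genes was 22.3% higher and 15.6% lower, and the median log2 ratio was 1.47 for the members and 0.06 for all genes. In effector memory against central memory, 2 were called higher (Tnfrsf4 and Tnfrsf9) and 2 lower (Cd27 and Cd226), where 14.8% and 12.8% of 9975 genes were called. The median absolute log2 ratio in effector memory against naive was 1.83 over the members and 0.73 over all genes. The comparisons share libraries and are not independent of each other. At a ratio of 4 in place of 2, Tnfrsf4, Tnfrsf9 and Cd27 kept their calls in effector memory against naive, and Cd28, Icos, Tnfrsf18 and Cd226 lost theirs.

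**Figure D2:**
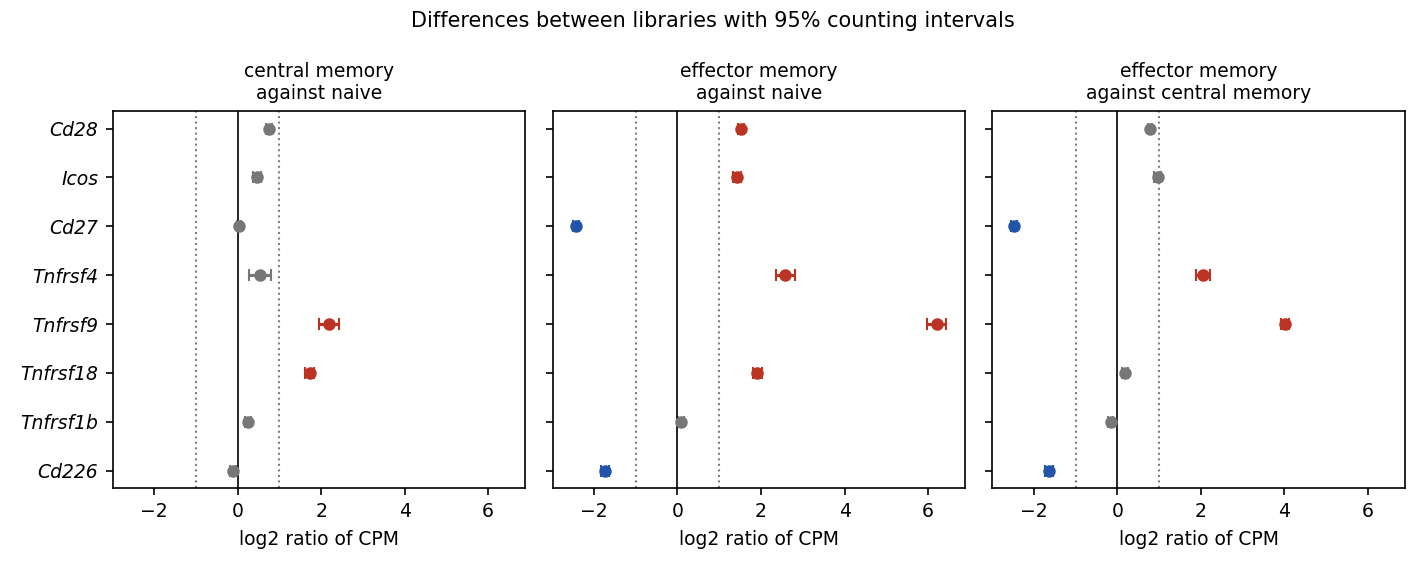
Log2 ratio of CPM for the 8 receptor genes in each comparison, with 95% counting intervals. Red points were called higher, blue points lower and grey points neither, and dotted lines mark a 2-fold difference. Effector memory against naive has 5 red and 2 blue points, with Tnfrsf9 at 6.20.

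**Figure D3:**
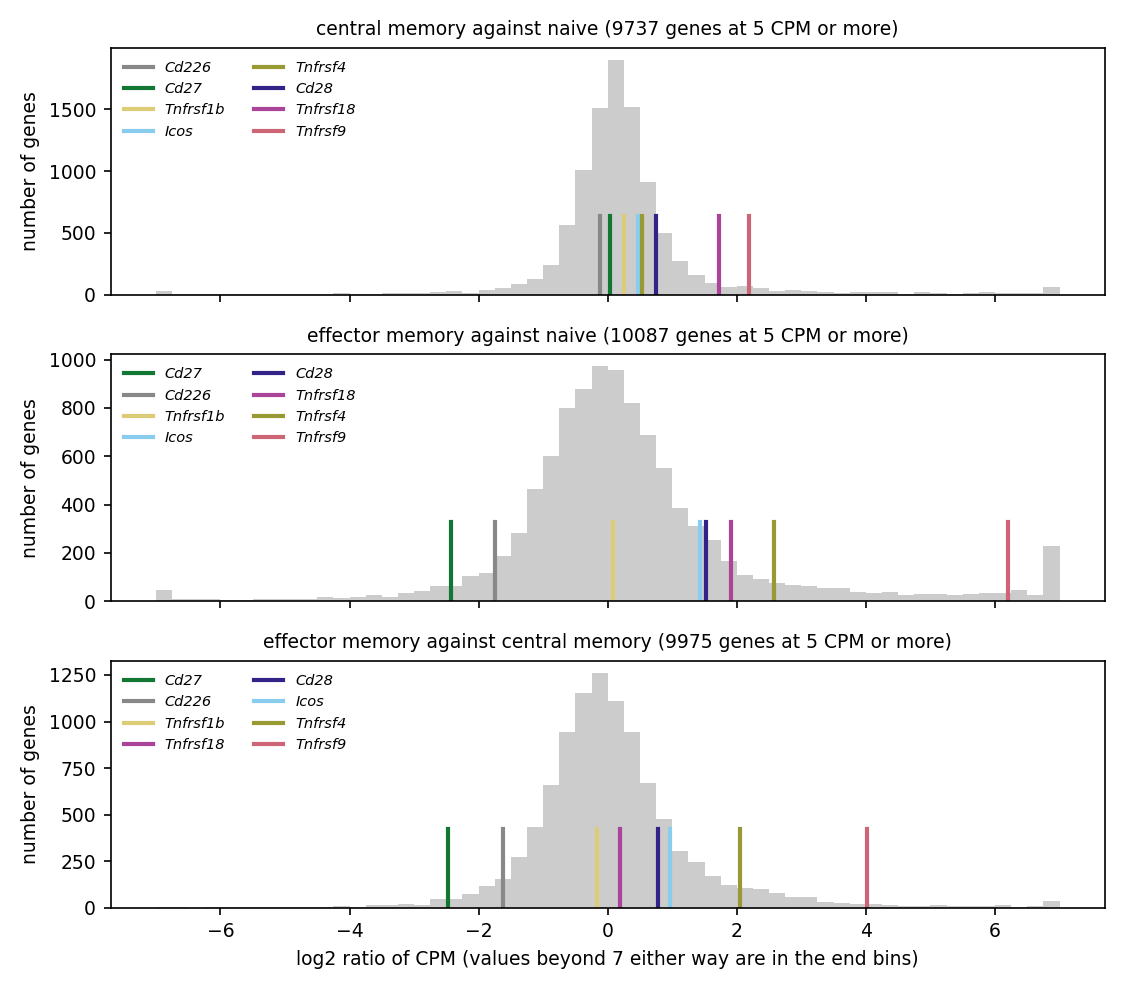
Distribution of log2 ratios over all genes that reached 5 CPM in either library (grey bars, number of genes) for each comparison, with coloured lines at the 8 receptor genes. In central memory against naive 6 of the 8 lines lie within 2-fold of 0, and in effector memory against naive 1 does.

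On the log2 scale, central memory lay at different points between naive (0) and effector memory (1) for the 7 genes called in effector memory against naive. Tnfrsf18 was at 0.90, near effector memory. Cd28 lay at 0.49, Tnfrsf9 at 0.35, Icos at 0.33 and Tnfrsf4 at 0.21. Cd226 at 0.06 and Cd27 at -0.01 were near naive. These positions are descriptions of 3 libraries and carry no error between samples.

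Levels of different genes were compared per kilobase of the union of their exons, from 1365 bases for Tnfrsf4 to 6122 for Cd28. In naive, Cd27 was the most abundant at 121 CPM per kilobase, 4.55 times the next gene, and made up 53.9% of the summed level of the 8. Tnfrsf4 at 4.98 and Tnfrsf9 at 2.18 CPM per kilobase were the lowest. In central memory Cd27 (41.5%) and Tnfrsf18 (21.5%) led. In effector memory Tnfrsf9 led at 160.4 CPM per kilobase and made up 41.0%, followed by Tnfrsf18 (18.6%) and Cd28 (10.1%), while Cd27 held 5.72% and Cd226, the lowest, 2.03%. Every pair of neighbours in these orders differed beyond counting error. With the longest transcript as the length, an alternative chosen after seeing the data, some middle places were exchanged, but Cd27 stayed first in naive and central memory and Tnfrsf9 first in effector memory. The summed level was 224 CPM per kilobase in the naive library, 298 in central memory and 391 in effector memory. Cd28 and Icos together held 11.5%, 13.3% and 18.3%. The 5 TNF receptor genes together held 76.7%, 78.5% and 79.6%, while the make-up within this group went from mostly Cd27 to mostly Tnfrsf9.

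**Figure D4:**
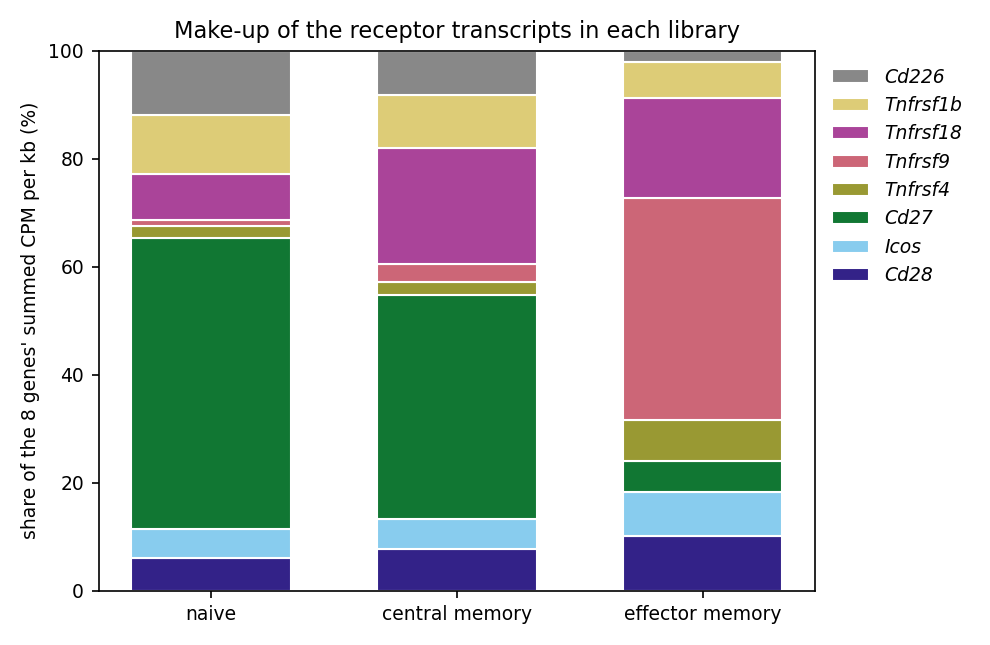
Share of each receptor gene in the summed CPM per kilobase of the 8 genes, as stacked bars for the 3 libraries. Cd27 takes 53.9% in naive and 5.72% in effector memory, and Tnfrsf9 takes 0.972% and 41.0%.

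The exchange of Cd27 for Tnfrsf9 can be put as their ratio within a library, which restates the same counts. Per kilobase, Tnfrsf9 stood at 0.0180 of Cd27 in naive (interval 0.0154 to 0.0210), 0.0802 in central memory (0.0750 to 0.0857) and 7.17 in effector memory (6.81 to 7.55). Such ratios were computed for 8 pairs of receptors, chosen after the values were seen.

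Inhibitory receptors that share ligands or the immunoglobulin fold with these receptors were read beside them. CTLA-4 competes with CD28 for CD80 and CD86. Ctla4 stood at 8.73, 81.7 and 308 CPM, and per kilobase at 0.273 of Cd28 in naive (interval 0.238 to 0.311), 1.52 in central memory (1.45 to 1.59) and 3.35 in effector memory (3.25 to 3.45). Ctla4 transcripts per length were thus fewer than those of Cd28 in naive and more in both memory libraries. TIGIT and CD96 bind PVR, as CD226 does. Tigit had 7, 641 and 676 counts, so that Cd226 per kilobase went from 97.0 times Tigit in naive (interval 47.0 to 241) to 1.26 times in central memory (1.16 to 1.37) and 0.345 in effector memory (0.314 to 0.380). Cd226 stood at 0.298 of Cd96 in naive (interval 0.285 to 0.311), 0.240 in central memory and 0.125 in effector memory (0.117 to 0.133). Of the 5 inhibitory receptors listed, 3 were called higher and Btla lower in each memory library against naive, where 11.2% of all genes were higher and 5.12% lower in central memory and 22.3% and 15.6% in effector memory.

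Ligand genes were low in these cells. Of 11 ligands of the 8 receptors, 7 reached 5 CPM in effector memory or naive, of which 4 were called higher and 1 lower in effector memory (median log2 ratio 1.93), beside 22.3% higher and 15.6% lower of all genes. Cd70, the ligand of CD27, and Tnfsf18, the ligand of GITR, had no count in any library, which allowed up to 0.108 CPM in the naive library, 0.0837 in central memory and 0.0938 in effector memory (3 counts each). Tnfsf9, the ligand of CD137, stood at 0.503, 3.68 and 16.2 CPM and was 32.2-fold higher in effector memory than in naive (interval 19.0 to 59.3). Lta, which encodes a ligand of TNFR2, stood at 8.73, 8.88 and 35.1 CPM and was 4.02-fold higher (interval 3.49 to 4.63). The ligands of CD28 went apart. Cd80 had no count in naive and stood at 6.84 CPM in central memory and 15.5 in effector memory, at least 63.4-fold and at least 143.6-fold higher. Cd86 stood at 28.1 CPM in the naive library, 1.93 in central memory and 1.16 in effector memory, 14.6-fold lower (interval 11.4 to 18.9) and 24.3-fold lower (interval 17.4 to 34.7). B cell genes moved with Cd86: their summed level was 37.9 CPM in the naive library, 6.84 in central memory and 2.91 in effector memory over 8 genes, and Ms4a1 and Ebf1 were at 0 in both memory libraries. Their part in the Cd86 difference was not tested.

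The other 23 genes of the TNF receptor family went both ways. In central memory against naive, 11 reached 5 CPM, 3 were called higher and 3 lower (median log2 ratio 0.14), beside 11.2% and 5.12% of all genes. For effector memory and naive, 12 reached 5 CPM, 4 were called higher and 3 lower (median log2 ratio -0.24), beside 22.3% and 15.6%. Tnfrsf8, which encodes CD30 and is the neighbour of Tnfrsf1b on chromosome 4, had no count in the naive library, 12 in central memory and 1689 in effector memory, at least 489.9-fold above naive and 158-fold above central memory (interval 90.0 to 306). Tnfrsf25, which encodes the death domain receptor DR3, stood at 16.4, 6.76 and 0.438 CPM, 37.5-fold lower in effector memory than in naive (interval 22.1 to 69.2). Tnfrsf11b, which encodes the decoy receptor osteoprotegerin, had counts in effector memory only, at 9.38 CPM, at least 87.0-fold above naive. In central memory, Tnfrsf13c, which encodes the BAFF receptor, stood at 9.10 CPM beside 1.55 in naive, 5.89-fold higher (interval 4.28 to 8.29).

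Downstream of the TNF receptors, 14 TRAF and adaptor genes were all measured. In central memory against naive 1 was called higher and 0 lower (median log2 ratio -0.08), beside 11.2% and 5.12% of all genes. The effector memory library had 1 higher and 4 lower than naive (median log2 ratio -0.68), where 22.3% and 15.6% of all genes were called. Traf3, an inhibitor of non-canonical NF-kB signalling, was 2.95-fold lower (interval 2.78 to 3.13), and Traf5, an adaptor of OX40 and CD27, 2.70-fold lower (interval 2.43 to 3.01). Siva1, whose protein binds CD27, was 6.01-fold higher (interval 5.01 to 7.25), opposite to Cd27 itself. Traf1, a TRAF protein of activated lymphocytes, stood at 168, 299 and 253 CPM and Traf2, the main adaptor of this receptor group, at 58.6, 63.2 and 45.2 CPM, none of which passed the rule.

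Of 16 NF-kB factors and inhibitors, 0 were called higher in any comparison. Of all genes, 11.2% were higher in central memory against naive, 22.3% in effector memory against naive and 14.8% in effector memory against central memory. Against naive, the effector memory library had 7 of the 16 called lower (median log2 ratio -0.93), where 15.6% of all genes were. Against central memory it had 6 of the 16 called lower (median log2 ratio -0.50), where 12.8% of all genes were. In central memory against naive only Tnfaip3, which encodes the inhibitor A20, was called, 2.94-fold lower (interval 2.80 to 3.09). Of all genes, 5.12% were called lower there. Nfkbia, which encodes the inhibitor IkB alpha, was 6.13-fold lower in effector memory than in naive (interval 5.57 to 6.77), at 93.2, 77.4 and 15.2 CPM over the 3 libraries. Relb, a factor of the non-canonical pathway, was 3.43-fold lower in effector memory than in central memory (interval 3.06 to 3.85). Nfkb1, the precursor of p50, stood at 316, 433 and 599 CPM and did not reach 2-fold.

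Of 20 genes of proximal CD28 and ICOS signalling, 0 were called in either direction in central memory against naive (median log2 ratio -0.18), beside 11.2% higher and 5.12% lower of all genes. Effector memory had 1 called higher and 5 lower than naive (median log2 ratio -0.38), beside 22.3% and 15.6%. Akt1, a kinase downstream of phosphoinositide 3-kinase, was 2.28-fold higher (interval 2.19 to 2.38). Grap2, which encodes the adaptor GADS, was 2.67-fold lower (interval 2.62 to 2.73), and Carmil2, needed for CD28 signalling to NF-kB, 2.24-fold lower (interval 2.14 to 2.33). Pik3cd, the catalytic subunit of the lymphocyte kinase, stood at 1327, 1456 and 1222 CPM and was not called.

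**Figure D5:**
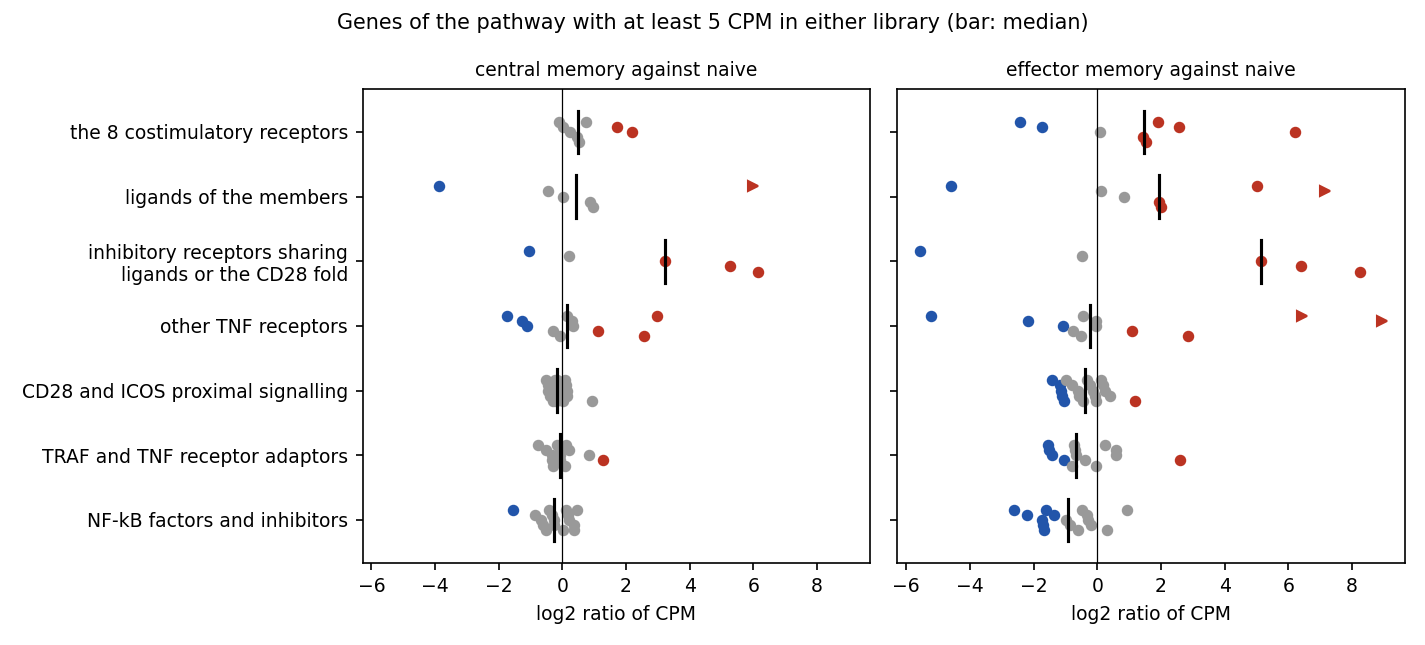
Log2 ratio of CPM against naive for central memory (left) and effector memory (right), for the 8 receptors and 6 lists of pathway genes, where 5 CPM was reached in either library. Red was called higher, blue lower and grey neither, triangles are bounds against a count of 0, and bars are medians. The NF-kB list has 7 blue points and 0 red points on the right, where 15.6% of all genes were called lower and 22.3% higher.

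Marker genes of other cells and states differed between the same libraries. Of 10 proliferation genes, all were called higher in each memory library against naive and in effector memory against central memory. The shares of all genes called higher were 11.2% in central memory against naive, 22.3% in effector memory against naive and 14.8% against central memory. The summed level of the 10 proliferation genes was 16.9 CPM in the naive library, 798 in central memory and 4836 in effector memory. Tnfrsf9, Tnfrsf4, Tnfrsf18, Cd28 and Icos had the same order of libraries, and the part of cycling cells in their differences was not tested. The 7 regulatory and helper T cell markers, read because GITR, OX40 and ICOS are also known from regulatory T cells, summed to 27.3, 189.7 and 872 CPM. In the memory libraries that sum came mainly from Il2ra, Ctla4 and the helper lineage factor Zbtb7b. Il2ra stood at 0.719, 48.6 and 456 CPM and Zbtb7b at 1.33, 37.4 and 93.6 CPM. Of the 7, these 3 were called higher in each comparison and 0 lower, beside the shares of all genes given above. Ikzf2, the largest of the 7 in naive, stood at 10.1, 19.8 and 13.4 CPM and was not called. Foxp3, the defining factor of regulatory T cells, ran opposite to the sum of the 7, at 3.95, 1.70 and 0.156 CPM. Cd4 stood at 2.12, 0.251 and 0.281 CPM. The 8 NK cell markers summed to 39.2, 231 and 1178 CPM. Most of the naive sum was Eomes (38.1, 74.4 and 79.9 CPM) and most of the effector memory sum was the granzyme gene Gzma (0.539, 85.3 and 1084 CPM), both also expressed by CD8+ T cells. Klrb1c (0.216, 33.0 and 1.91 CPM) and Klre1 (0.0719, 11.7 and 2.03 CPM) were highest in central memory. Ncr1, Klra8 and Klra4 were at 0 in naive and effector memory and at 12.2, 3.68 and 2.71 CPM in central memory, and their part in the Tnfrsf18 and Tnfrsf9 differences of central memory was not tested. Dendritic cell and macrophage markers summed to 9.67, 9.49 and 34.6 CPM over 9 genes, with Adgre1, Flt3 and Siglech at 0 in all 3 libraries and Csf1r, Clec9a and Lyz2 also at 0 in effector memory, where Cd80 was highest. Of this list Cd68 (3.38, 4.05 and 21.1 CPM) and Xcr1 (2.01, 1.56 and 12.3 CPM) were called higher in effector memory against naive, and their part in the Cd80 difference was not tested. The 9 neutrophil, platelet and red cell markers summed to 4.20, 2.09 and 2.69 CPM. All 5 naive markers were called lower in effector memory against naive, where 15.6% of all genes were. All 5 were also lower in effector memory against central memory, where 12.8% of all genes were. In central memory against naive 1 of the 5 was called lower, beside 5.12% of all genes. Of 7 memory markers, 6 were called higher in each memory library against naive, beside 11.2% of all genes for central memory and 22.3% for effector memory. In effector memory against central memory, 1 memory marker was called higher and 2 lower (Ccl5 and Cxcr3), beside 14.8% and 12.8% of all genes.

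Among 7965 other genes with at least 20 CPM in a library, those most like each receptor gene were found by the Euclidean distance of centred log2(CPM + 0.5) values over the 3 libraries. The pattern of Tnfrsf9 was the least common, with 12 genes within a distance of 0.5. Mgat3 (distance 0.06, at 0, 1.54 and 33.4 CPM) and Dkkl1 (distance 0.14, at 0.0719, 2.26 and 43.2 CPM) led them. Both had less in naive than the 0.5 added to each CPM, which shrinks their ratios to naive. Their closeness to Tnfrsf9, at 5.93 CPM in naive, thus depends on that added value. The pattern of Cd27 had 76 genes within a distance of 0.5, led by Chd3 (distance 0.03, at 1273, 1331 and 243 CPM) and Pkd1. For Tnfrsf18 there were 121 genes, led by Ubash3b and Mid1ip1, and for Tnfrsf4 142, led by Lrp5 and Zranb3. Cd226 had 444, led by Zfp512b and Polr3e. Cd28 had 859, led by Snap47 and Sdhd, and Icos 995, led by Psmd13 and Banf1. The flat pattern of Tnfrsf1b was shared most widely, with 3142 genes, led by Map4 and Ppp1r18. With 3 points per gene, closeness is a description of level only.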

How the data were processed

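RNA of 3 CD8+ T cell libraries was analysed from 1 deposited table of read counts per gene symbol, whose columns TN, TCM and TEM were taken for the naive and the 2 memory groups by their initials. Tools named by the submitters' processing notes are featureCounts 1.5.0-p3, HISAT2 2.0.5 and CASAVA, with mm10 as the build. The sources used here do not give the annotation, the strand setting or the handling of multi-mapping reads. Counts were scaled to CPM by TMM factors from edgeR 4.0.16 under R 4.3.3; the naive factor was 1.04, the central memory factor 0.999 and the effector memory factor 0.967. Ratios carry 95% exact (Clopper-Pearson) intervals. A library at 0 entered a ratio at 3 counts, as a bound. The call rule is one of size, not a test. It was run on simulated counts that held counting error only, which cannot show how it behaves under variation between samples. Exon lengths came from GENCODE M21, found for 98.5% of gene names. Scripts ran on Python 3.11.15 with SciPy 1.17.1, NumPy 2.4.6, pandas 2.3.3 and Matplotlib 3.10.9.

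The receptors, 6 pathway lists and 9 marker lists were chosen with earlier results of these data known. Named genes are the 8 receptors, up to 4 called members of each list with the largest differences, a few fixed markers, and the 2 genes nearest in pattern to each receptor. Traf1, Traf2, Nfkb1, Pik3cd and marker genes outside this rule were named after their values were seen, and not every gene within the rule is printed. Alternatives were upper quartile factors, DESeq2 1.42.0 size factors and total counts, other ratios and minimum levels, and CPM + 1.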

Additional observations from a re-analysis of the deposited data

How the results depend on the processing

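No paired analysis was possible because each group has 1 library, and for the same reason no library could be left out. The 13 called differences of the receptor genes over the 3 comparisons were all kept with total counts, DESeq2 size factors or upper quartile factors, and with no minimum level or one of 20 CPM; DESeq2 size factors added Icos in effector memory against central memory. With a ratio of 4, 7 of the 13 were kept: 1 receptor gene was then higher in central memory against naive, 2 were higher and 1 lower in effector memory against naive, and 2 were higher and 1 lower in effector memory against central memory. At a ratio of 4, 509 of all 9737 genes were higher in central memory against naive. In effector memory, 1133 of 10087 genes were higher and 524 lower against naive, and 635 of 9975 higher and 289 lower against central memory. With a ratio of 1.5, 4 receptor genes were higher in effector memory against central memory, beside 2396 of all 9975 genes. None of the receptor ratios that passed the rule changed sign under another scaling or with 1 added to each CPM. Other scalings shifted every gene by at most 0.12 on the log2 scale in size (upper quartile factors gave -0.12 and DESeq2 size factors -0.11 in central memory against naive, and upper quartile factors -0.10 in effector memory against naive). Those shifts turned the uncalled log2 ratios of Cd27 in central memory against naive (0.03, and -0.02 to -0.09 under the other scalings) and of Tnfrsf1b in effector memory against naive (0.08, and -0.01 with total counts and -0.02 with upper quartile factors).

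Counts over all genes depended on the limits by construction, since these change which genes can pass. In central memory against naive, 1092 genes were higher and 499 lower. These counts became 2020 and 1540 with no minimum level, 544 and 286 at 20 CPM, 2143 and 1051 at a ratio of 1.5, and 509 and 193 at a ratio of 4. For effector memory and naive, the 2247 higher and 1576 lower became 3566 and 2596 with no minimum level and 1133 and 524 at a ratio of 4, and 2649 were lower at a ratio of 1.5. In effector memory against central memory, the 1479 higher and 1273 lower became 2830 and 1980 with no minimum level, 2396 and 2528 at a ratio of 1.5, and 635 and 289 at a ratio of 4. Of 252 counts of pathway genes under other settings, 212 stayed within 1.5 times the value reported and 40 did not. With the longest transcript as the length, the share of Cd27 in the 8 genes was 60.2% in naive and 6.75% in effector memory, and that of Tnfrsf9 0.935% and 41.7%.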
